A study of Schizosaccharomyces pombe with 8 samples.

Results

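Convergent gene pairs whose ends overlap were followed in the fission yeast Schizosaccharomyces pombe: neighbouring protein-coding genes that face each other, with the gene on the plus strand first and the spans sharing bases at their 3′ ends. The coding features were sorted by chromosome and start. A pair was kept where the second gene began at or before the end of the first and neither span contained the other. This gave 748 of 5131 adjacent pairs, with 1496 of 5137 coding features, of which 342 pairs lay on chromosome I, 284 on chromosome II and 122 on chromosome III. The rule used positions and strands alone. RNA was sequenced in 8 libraries, 2 from each of 4 strains: SPJ1577 (genotype WT), CS2354 (nht1-delta), CS2379 (iec1-delta) and CS2370 (iec5-delta). All were grown in YEA, a rich yeast extract medium, to mid-log phase, and total RNA was depleted of ribosomal RNA. The deleted genes encode subunits of INO80, a chromatin remodeller that moves nucleosomes and exchanges histones, and the title of the series names the inheritance of heterochromatin as its subject. Each strain is a single labelled strain, and the labels do not say whether its 2 libraries came from separate cultures, so p-values measure the spread between these libraries, which may be technical.

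RNA polymerases that transcribe convergent genes run toward each other, and each must terminate before or inside its neighbour. In fission yeast the region between convergent genes is known as a place where cohesin gathers, and readthrough transcripts of such genes can form double-stranded RNA, the substrate of the RNA interference machinery. RNA polymerase II transcripts end by cleavage and polyadenylation, for which AAUAAA, read here as AATAAA in DNA, is the best known signal.

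In the RefSeq annotation of build ASM294v3, all 748 pairs were found as convergent neighbours, 747 still overlapped and 746 had both end coordinates unchanged from the files. The shared bases lay in untranslated regions alone in 425 pairs (56.9%) and reached a coding sequence in 322. Coding sequences themselves overlapped in 11 pairs. The median distance between the ends of the coding sequences was 333 bases. The letters AATAAA were searched on the gene's own strand in the last 60 bases of each 3′ untranslated region of at least that length. They stood in 325 of 1428 members (22.8%), in 563 of 3086 other coding genes (18.2%) and in 19.7% of all 4514. The reverse complement TTTATT stood in 13.5% of members and 16.4% of the others. In shared bases it is also how a partner's AATAAA reads on this strand. Differences between these shares were not tested. The lines below give 30 bases around the last match for both members of 2 pairs, and for 1 member each of 2 pairs described later. Each match lies inside the span of the partner. This follows from the choice of pairs, since these overlaps are longer than the 60 bases searched. Capitals mark AATAAA, each sequence is read 5′ to 3′ on the strand of its gene, and coordinates are on ASM294v3.
SPCC777.02 (chrIII:1601359-1601388, plus strand): ctaattgactaataaaatgAATAAAtccta
SPCC777.03c (chrIII:1601281-1601310, minus strand): tcttaagctgaaAATAAAtatagatagaat
SPBPB10D8.01 (chrII:83304-83333, plus strand): cattcattgctaAATAAAatggaggtcgat
SPBPB10D8.02c (chrII:83250-83279, minus strand): aaatagtaactgAATAAAgctttcagcaat
alx1 (chrI:815390-815419, minus strand): gttaatttaactAATAAAatatacaattac
fus1 (chrI:4813136-4813165, minus strand): gaaattataattAATAAAaggtataattat
The motif stopped 5 bases before the annotated gene end in SPCC777.02, 14 in alx1, 27 in SPCC777.03c, 33 in SPBPB10D8.02c, 36 in SPBPB10D8.01 and 37 in fus1. The window of SPCC777.02 held an earlier copy, in lower case. A match is a description of these letters and not a mapped cleavage site.

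The overlaps ran from 1 to 7816 bases, with a median of 138.5 and quartiles of 66 and 736. They fell around 2 lengths, one near 100 bases and one above 1000. Of the pairs, 143 shared fewer than 50 bases, 303 shared from 50 to under 200, 84 from 200 to under 500 and 218 shared 500 or more. Just inside the rule lay 27 pairs that shared 1 to 10 bases, and just outside it 37 convergent pairs with a gap of 0 to 9 bases. Another 548 convergent pairs did not overlap, and 103 were left out because 1 span lay inside the other.

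**Figure D1:**
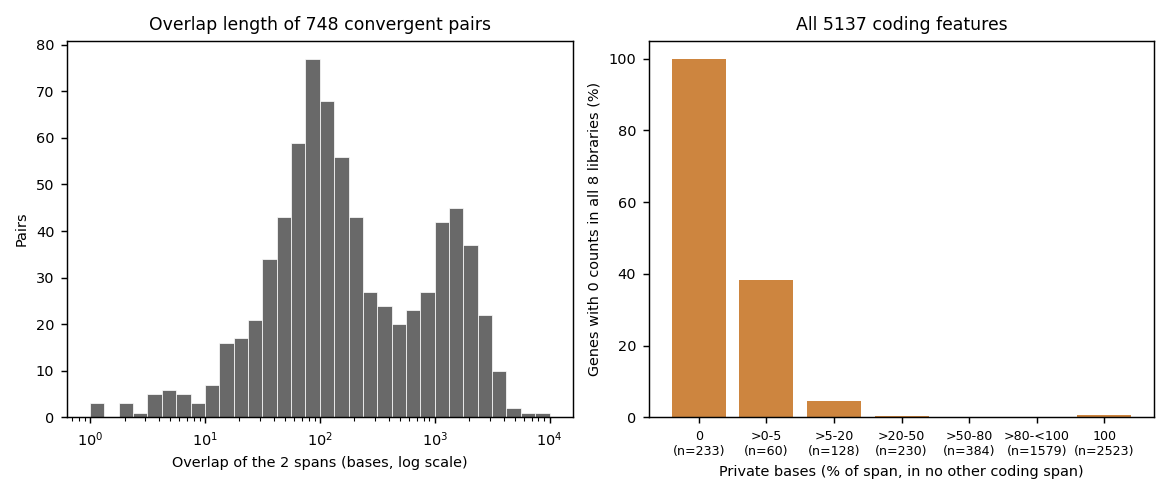
Left, number of convergent pairs by the length of their overlap in bases on a log axis. Right, percentage of all 5137 coding features with a count of 0 in every library, by the share of their span that no other coding feature covers; all 233 features with no such base stand at 0 counts, against 20 of the 2523 whose whole span is their own.

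How the shared bases were counted decides what a member's value means. The libraries were strand-specific by the labels, yet each of the 233 coding features with no base of its own had a count of 0 in all 8 libraries. These included 103 genes nested inside a convergent partner and 96 inside a divergent one. Reads in shared bases were therefore assigned to neither gene, and strand was not used to separate them. A member's count comes from its private bases, those in no other coding span, which made up a median of 90.6% of a member's span but under 50% for 310 members and none for 13. Sense reads of a member and antisense reads that cross its private bases, including readthrough from the partner, cannot be told apart in these counts. The higher member's reads in the overlap were estimated in wild type as its count times the overlap over its full span length. As counts come from private bases, this estimate is low. In 247 pairs, 173 of them among the 218 with an overlap of 500 bases or more, the lower member had fewer counts than this estimate. It would have held at least that many had such reads been counted for both.

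Coding totals ran from 2208165 to 3426063 counts per library, of which the members held 20.6% to 21.8%. Levels are given as CPM, counts scaled to a common library size with the coding totals and TMM factors, and 3 counts correspond to 0.875 to 1.38 CPM. The 2 deleted genes outside the pairs showed no fall that passed the test. Both libraries labelled nht1 held nht1 reads, at 24.9 and 34.9 CPM against 48.6 and 41.6 in wild type (log2 fold change -0.60, edgeR adjusted p = 0.212). The gene iec1 stood at 95.4 and 88.4 CPM in the libraries labelled iec1 against 40.5 and 36.4 in wild type (1.25, edgeR adjusted p = 0.000741), a rise that goes against the label. The libraries are therefore named by their labels throughout, and a change for nht1, iec1 or iec5 is that of the 2 libraries with this label against the 2 of wild type.

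In wild type the tested members covered a wide range of expression. Their level per kilobase of private bases ran from 1.86 to 7072 CPM, with a median of 40.5 against 42.0 for all tested genes. The highest belonged to rpl4102 and rpl901, which encode ribosomal proteins, and to tef101, a translation elongation factor. The levels of the partners were unrelated: over the 650 pairs with both members tested, the correlation of their log2 levels per private kilobase was -0.02 (a description over pairs measured in the same 2 libraries). The levels lay within 2-fold of each other in 233 pairs (35.8%) and more than 8-fold apart in 129.

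The test for each strain against wild type was edgeR's quasi-likelihood test over 4652 coding genes in all 8 libraries, with Benjamini-Hochberg adjustment, and a gene was called at an adjusted p under 0.05. It covered 1386 of the 1496 members. The other 110 had too few counts, with a median of 107.5 private bases against 1562 for the tested members, and 34 of them had no count at all. Both members were tested in 650 pairs, 1 in 86 and none in 12.

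Members were called in the libraries labelled nht1 and iec1 and hardly in those labelled iec5, in each comparison at a share near that of all coding genes tested. With the label nht1, 28 members rose and 17 fell, 3.25% of those tested against 4.13% of all tested genes. The risen members were 2.02% of those tested against 3.14% of all, and the fallen 1.23% against 0.989%. With the label iec1, 86 rose and 34 fell, 8.66% against 10.3%, of which 6.21% against 8.04% rose and 2.45% against 2.21% fell. With the label iec5, 3 rose and 2 fell, 0.361% against 0.408%, with backgrounds of 0.279% for rises and 0.129% for falls. The differences between members and other genes were not tested. The 3 comparisons share the same 2 wild-type libraries. Without 1 of the 4 libraries compared, the number of members that rose lay between 7 and 15 for nht1 and between 37 and 57 for iec1, and the number that fell between 4 and 10 for nht1 and between 14 and 35 for iec1. For iec5 none rose without either wild-type library or iec5 replicate 1, and none fell without any 1 of the 4 libraries compared.

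Both partners were called together in few pairs, at shares near those of all adjacent pairs tested. Both members were called in 3 of 650 pairs for nht1 (0.462%, against 0.445% of all 4269 adjacent pairs tested), in 7 for iec1 (1.08%, against 1.52%) and in 0 for iec5 (against 0.0234%, 1 pair). For iec5 DESeq2 also gave 0. At an unadjusted edgeR p under 0.05, a looser cut, both members passed in 18 pairs for nht1, 39 for iec1 and 3 for iec5. The share of all adjacent pairs at that cut was not computed. For nht1, 2 of the 3 pairs moved the same way and 1 in opposite ways. For iec1, 3 of the 7 moved the same way and 4 in opposite ways. Among all other adjacent pairs with both genes called, 9 of 58 for iec1 and 2 of 16 for nht1 moved in opposite ways, and the difference was not tested. These counts rest on few libraries: without wild-type replicate 1 both stood at 0, for nht1 the count was 0 without any 1 of the 4 libraries compared and 6 without iec1 replicate 1 or 2, and for iec1 it was 3 without wild-type replicate 2, 1 without iec1 replicate 1 and 2 without iec1 replicate 2.

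The log2 fold changes of the 2 partners showed no relation across pairs. Their correlation over 650 pairs was 0.03 for nht1, 0.02 for iec1 and -0.02 for iec5. The points of each comparison share the same 4 libraries. For convergent pairs without overlap it was also low, at 0.04, 0.10 and 0.01 over 467 pairs. For overlapping tandem pairs, where both genes lie on the same strand, it was 0.26, 0.22 and 0.21 over 281 pairs. For overlapping divergent pairs it was 0.15, 0.25 and 0.08 over 157. Tandem pairs without overlap gave 0.09, 0.10 and 0.08 over 1771, and divergent pairs without overlap 0.11, 0.17 and 0.07 over 943. Differences between these classes were not tested. The difference between 2 libraries of the same strain gave -0.03 to 0.06 over the convergent overlapping pairs. It gave 0.07 to 0.13 over the overlapping tandem pairs and -0.11 to 0.13 over the overlapping divergent pairs. In the 38 pairs with 1 member called for nht1, the 101 for iec1 and the 5 for iec5, the partner missed the threshold, which does not show that it did not differ. Partners of the members that rose in the libraries labelled iec1 had a median log2 fold change of 0.04, and 44 of 83 lay above 0. Partners of those that fell had a median of -0.03 (n = 32). For nht1 these medians were 0.16, with 19 of 27 above 0, and 0.02 (n = 17), against 0.02 for all tested genes.

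**Figure D2:**
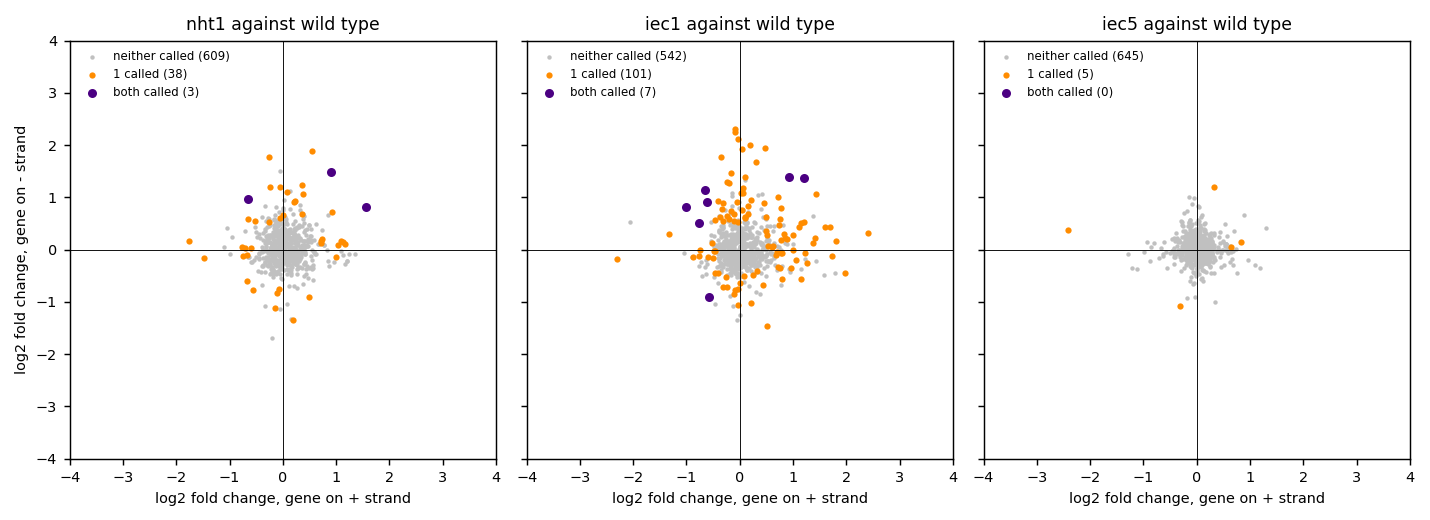
Log2 fold change against wild type of the plus-strand gene (x axis) and the minus-strand gene (y axis) in each of the 650 pairs with both members tested, for each labelled strain. Grey points have neither member called (609, 542 and 645 pairs), orange points 1, and purple points both (3, 7 and 0).

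Shares called by length of overlap were compared as a description, with no test of their difference. The share of tested members called in the libraries labelled iec1 was 8.93% where the pair shared fewer than 50 bases, 9.35% from 50 to under 200, 9.88% from 200 to under 500 and 6.67% at 500 or more, the lowest of the 4. For nht1 the shares in the same order were 2.86%, 3.51%, 3.70% and 2.90%, and for iec5 they were 0.714%, 0.334%, 0% and 0.290%, so the longest overlaps were not the lowest there. The class of 500 bases or more had the fewest private bases, a median of 34.5% of the span, and the largest standard errors, with a median of 0.25 against 0.17 in the first. The correlation of the partners' log2 fold changes in the 4 classes lay between -0.06 and 0.07 for iec1. It lay between -0.04 and 0.13 for nht1 and between -0.11 and 0.05 for iec5.

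A second test asked whether the ratio of the partners changed. The balance is the log2 ratio of the plus-strand gene's CPM to the minus-strand gene's, and its change was tested with limma over all 4269 adjacent pairs with both genes tested, with Benjamini-Hochberg adjustment. The balance changed in 18 of 650 pairs for nht1 (2.77%, against 3.87% of all pairs), in 63 for iec1 (9.69%, against 10.5%) and in 1 for iec5 (0.154%, against 0.211%). Sizes ran from 0.73 to 1.98 for nht1 and from 0.66 to 2.32 for iec1 on the log2 scale. In 48 of the 63 pairs for iec1 only 1 member was itself called, in 4 both were called in opposite ways, and in 11 neither was. The corresponding counts for nht1 were 10, 1 and 7. Of the pairs with 1 member called, the balance changed in 48 of 101 for iec1, 10 of 38 for nht1 and 1 of 5 for iec5. In the rest of these pairs the 2 members were not shown to differ. Without 1 of the 4 libraries compared, the number of changed balances lay between 4 and 8 for nht1. For iec1 it was 38 and 20 without wild-type replicate 1 or 2 and 35 without iec1 replicate 1.

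The pair with both members called in opposite ways for nht1 as well as iec1 was SPBC1271.10c, annotated as a transporter, with tgp1, a plasma membrane transporter of glycerophosphodiesters and a gene of the phosphate response. Their spans shared 67 bases (chrII:350310-350376, ASM294v2, the build of the files). SPBC1271.10c stood at 272 and 183 CPM in wild type, 148 and 143 in the libraries labelled nht1, 139 and 151 in those labelled iec1 and 213 and 180 in those labelled iec5. The gene tgp1 stood at 25.1 and 17.7 CPM in wild type, 43.4 and 40.7 for nht1, 52.7 and 42.9 for iec1 and 20.8 and 23.3 for iec5. Every library labelled nht1 or iec1 lay below the wild-type and iec5 libraries for SPBC1271.10c and above them for tgp1. SPBC1271.10c fell (log2 fold change -0.65 ± 0.17 (SE), edgeR adjusted p = 0.0402 for nht1; -0.65 ± 0.17, 0.0213 for iec1) and tgp1 rose (0.97 ± 0.24, 0.0288; 1.15 ± 0.24, 0.00457). The count ratio of the pair went from 10.9 and 10.3 in wild type to 3.41 and 3.51 for nht1 and 2.64 and 3.53 for iec1. The balance changed by -1.59 (limma adjusted p = 0.00124) and -1.77 (0.000119), a call kept under every alternative tried. The single-gene calls did not all hold. Without wild-type replicate 1, SPBC1271.10c missed the threshold in both comparisons (edgeR adjusted p = 0.370 and 0.290), as did tgp1 without wild-type replicate 2 (0.287 and 0.0843). Without nht1 replicate 1 or 2 neither nht1 call held (0.142 to 0.259), and without iec1 replicate 1 the call of SPBC1271.10c ended (0.106).

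The pair caf16 and fus1 changed order in CPM, which is not scaled for length, for nht1 and iec1 but not for iec5. Per kilobase of private bases, the wild-type mean was 140 CPM for caf16 and 19.0 for fus1. The gene caf16 encodes a subunit of the CCR4-Not complex, which shortens mRNA poly(A) tails, and fus1 encodes the formin needed for cell fusion in mating. They shared 69 bases (chrI:4813111-4813179). The level of caf16 was 146 and 170 CPM in wild type, 103 and 97.1 for nht1, 73.4 and 84.0 for iec1 and 129 and 131.5 for iec5. That of fus1 was 76.1 and 98.8 CPM in wild type, 120.5 and 143 for nht1, 139.9 and 166 for iec1 and 125 and 127 for iec5. The libraries of nht1, iec1 and iec5 lay below wild type for caf16 and above it for fus1, without overlap. For iec1, caf16 fell (-1.002 ± 0.153, edgeR adjusted p = 0.000329) and fus1 rose (0.81 ± 0.17, 0.00351). The balance changed by -1.81 (limma adjusted p = 6.91e-07) for iec1 and by -1.25 (0.000606) for nht1, both kept under every alternative, and by -0.82 for iec5, which missed the threshold (0.140). For nht1, caf16 also fell (-0.66 ± 0.15, edgeR adjusted p = 0.0173), while fus1 missed the threshold (0.59 ± 0.17, 0.0552; 0.0388 and 0.0468 without iec1 replicate 1 or 2). The fus1 call for iec1 ended without replicate 1 of wild type (0.0619) or replicate 2 of iec1 (0.0507), and the caf16 call for nht1 without wild-type replicate 2, nht1 replicate 1 or nht1 replicate 2 (0.0973 to 0.181).

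Another opposed pair was ste24, which encodes a CAAX prenyl protease of the kind that processes prenylated mating pheromone, and SPAC3H1.06c, annotated as a transporter. They shared 106 bases (chrI:1940432-1940537). The level of ste24 was 198 and 186 CPM in wild type, 134 and 133 for nht1, 138 and 113 for iec1 and 148 and 140 for iec5, so the libraries with these 3 labels all lay below wild type. SPAC3H1.06c stood at 52.9 and 45.2 CPM in wild type, 73.9 and 69.1 for nht1, 111 and 74.6 for iec1 and 55.4 and 38.2 for iec5, so that the nht1 and iec1 libraries lay above wild type and the iec5 libraries around it. For iec1, ste24 fell (-0.62 ± 0.14, edgeR adjusted p = 0.00907) and SPAC3H1.06c rose (0.91 ± 0.22, 0.0106), and the balance changed by -1.50 (limma adjusted p = 0.000101), which held under every alternative. For nht1, ste24 fell (-0.53 ± 0.14, edgeR adjusted p = 0.0456) and SPAC3H1.06c did not pass (0.54 ± 0.22, 0.200), with a balance change of -1.07 (limma adjusted p = 0.00975). For ste24 the iec1 call ended without replicate 1 of wild type (0.0668) or replicate 2 of iec1 (0.0691), and for SPAC3H1.06c without replicate 2 of wild type or replicate 1 of iec1 (0.122 and 0.154). The nht1 calls ended without any 1 of the 4 libraries compared (0.147 to 0.250 for ste24, 0.0643 to 0.126 for the balance), and that of ste24 also without iec5 replicate 1 or 2 (0.0543 and 0.0546).

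The last opposed pair for iec1 was kae1 and dna2. The gene kae1 encodes a subunit of the KEOPS complex, which modifies tRNA, and dna2 a nuclease-helicase of DNA replication, and their spans shared 394 bases (chrII:3592291-3592684). The level of kae1 was 123 and 107 CPM in wild type, 60.7 and 79.7 for nht1, 55.9 and 78.7 for iec1 and 77.4 and 108 for iec5. That of dna2 was 179 and 153 CPM in wild type, 232 and 192 for nht1, 236 and 236 for iec1 and 194 and 176 for iec5. The nht1 and iec1 libraries lay below wild type for kae1 and above it for dna2, whereas the iec5 libraries overlapped wild type for both. For iec1, kae1 fell (-0.76 ± 0.20, edgeR adjusted p = 0.0240) and dna2 rose (0.51 ± 0.14, 0.0301), and the balance changed by -1.30 (limma adjusted p = 0.000963), kept under every alternative. The kae1 call was lost without any of wild-type replicates 1 and 2 and iec1 replicate 1 (0.0636 to 0.206). The dna2 call ended without wild-type replicate 2 or either iec1 library (0.0961 to 0.241) and in a fit of these 2 groups alone (0.0514). For nht1 the balance changed by -1.07 (limma adjusted p = 0.0134), a call lost without either wild-type library or nht1 replicate 1 (0.122 to 0.273), while neither gene passed (kae1 -0.72, edgeR adjusted p = 0.0566). That of kae1 lay near the threshold: it passed with DESeq2 (0.0369), RLE normalization (0.0429) or a fit of 2 groups (0.0145), and without any 1 of the iec1 or iec5 libraries (0.0179 to 0.0341).

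**Figure D3:**
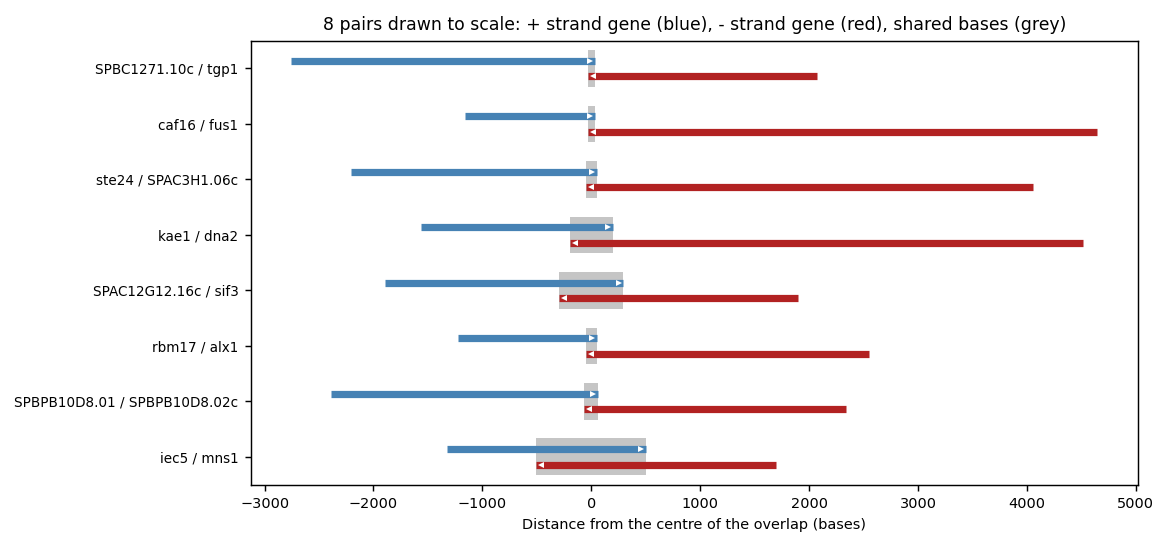
The 7 pairs with both members called and the pair that holds iec5, drawn to scale around the centre of the overlap (x axis, bases). Blue bars are plus-strand genes, red bars minus-strand genes, white arrowheads point along transcription, and grey marks the shared bases, from 67 in SPBC1271.10c and tgp1 to 1012 in iec5 and mns1.

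Among the pairs that moved the same way, rbm17 and alx1 rose together. The product of rbm17 is a G-patch RNA-binding protein, that of alx1 a BRO1-domain protein, and they shared 103 bases (chrI:815388-815490). The level of rbm17 was 6.34 and 12.8 CPM in wild type, 28.6 and 28.0 for nht1, 22.0 and 22.3 for iec1 and 14.5 and 9.62 for iec5. That of alx1 was 46.8 and 45.2 CPM in wild type, 75.5 and 86.2 for nht1, 121 and 117 for iec1 and 64.9 and 50.5 for iec5. For both genes the nht1 and iec1 libraries lay above wild type and iec5. Both rose in the libraries labelled nht1 (rbm17 1.56 ± 0.33, edgeR adjusted p = 0.0122; alx1 0.81 ± 0.18, 0.0131) and in those labelled iec1 (1.21 ± 0.34, 0.0307; 1.37 ± 0.17, 5.01e-05). The balance did not pass in either (0.78, limma adjusted p = 0.286; -0.13, 0.882). The rise of alx1 for iec1 held under every alternative. The rbm17 calls ended without wild-type replicate 1 or either library of the label compared (edgeR adjusted p = 0.0862 to 0.140 for nht1, 0.0783 to 0.242 for iec1), that for iec1 also without nht1 replicate 1 (0.0502), and the alx1 call for nht1 without any 1 of the 4 libraries compared (0.0537 to 0.153).

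SPAC12G12.16c, annotated as a nuclease of the XP-G family, and sif3, named as a Sad1-interacting factor, also rose together, with 590 shared bases (chrI:316996-317585). SPAC12G12.16c stood at 21.1 and 20.2 CPM in wild type, 33.7 and 43.6 for nht1, 39.0 and 39.6 for iec1 and 25.4 and 34.4 for iec5. The gene sif3 stood at 15.4 and 14.4 CPM in wild type, 34.9 and 48.4 for nht1, 40.4 and 38.5 for iec1 and 21.7 and 20.4 for iec5. Every library labelled nht1, iec1 or iec5 lay above both wild-type libraries for both genes. Both rose for nht1 (0.90 ± 0.25, edgeR adjusted p = 0.0478; 1.48 ± 0.25, 0.00228) and for iec1 (0.93 ± 0.25, 0.0216; 1.40 ± 0.25, 0.00138), and neither passed for iec5 (0.54 ± 0.25 and 0.50 ± 0.26, both 0.993). The sif3 rise for iec1 held under every alternative, and that for nht1 ended without nht1 replicate 2 (0.0604). The SPAC12G12.16c calls ended without any 1 of the libraries compared (0.0881 to 0.370 for nht1, 0.0606 to 0.132 for iec1), and for nht1 also with DESeq2 (0.0585) and RLE normalization (0.0518).

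SPBPB10D8.01, annotated as a cysteine transporter, and SPBPB10D8.02c, annotated as an arylsulfatase, whose ends are printed above, were the pair that fell together, with 129 shared bases (chrII:83229-83357). SPBPB10D8.01 stood at 89.1 and 83.5 CPM in wild type, 58.2 and 58.2 for nht1, 61.4 and 55.2 for iec1 and 64.9 and 74.1 for iec5. SPBPB10D8.02c stood at 101 and 112 CPM in wild type, 52.2 and 72.0 for nht1, 56.9 and 56.4 for iec1 and 50.4 and 50.8 for iec5. All 6 libraries labelled nht1, iec1 or iec5 lay below both wild-type libraries for both genes. Both fell in the libraries labelled iec1 (-0.57 ± 0.17, edgeR adjusted p = 0.0361; -0.91 ± 0.18, 0.00262). SPBPB10D8.02c also fell for nht1 (-0.78 ± 0.18, 0.0171) and iec5 (-1.07 ± 0.18, 0.00916), where SPBPB10D8.01 missed the threshold (-0.57 ± 0.17, 0.0634; -0.31 ± 0.16, 0.993). The SPBPB10D8.02c call for iec1 held under every alternative. That for iec5 ended without any 1 of the 4 libraries compared (0.0501 to 0.170), and that for nht1 without either wild-type library or nht1 replicate 1 (0.0640 to 0.206). The SPBPB10D8.01 call ended without any 1 of the wild-type, iec1 or nht1 libraries (0.0519 to 0.166) and in a fit of 2 groups (0.0608), while for nht1 it was made with RLE normalization (0.0498), a fit of 2 groups (0.0446) or without iec1 replicate 2 (0.0437).

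**Figure D4:**
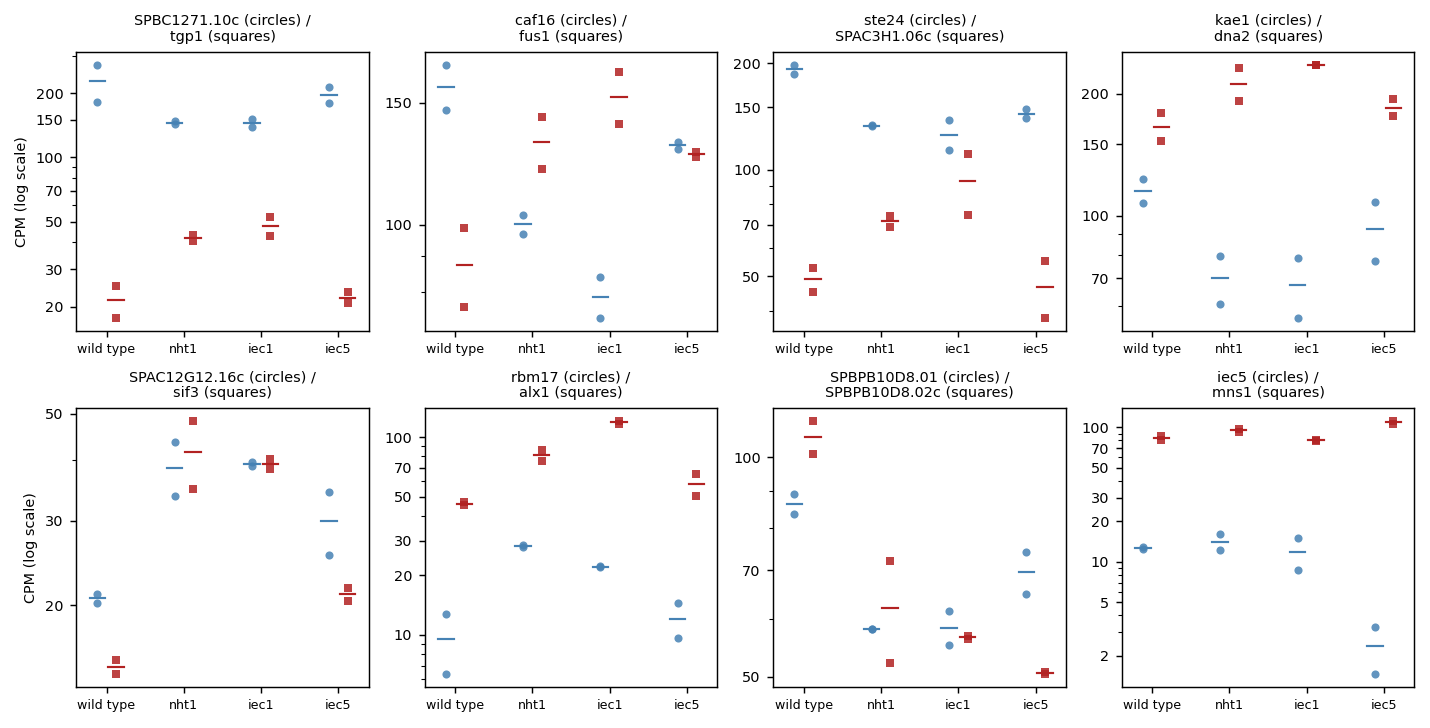
Level in CPM (log axis) of both members of 8 pairs in the 2 libraries of each labelled strain; circles are the plus-strand gene, squares the minus-strand gene, and short lines the mean of 2 libraries. The upper row holds the 4 pairs called in opposite ways for iec1, where circles go down and squares up, and the lower row the 3 pairs called the same way and the pair iec5 and mns1.

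In most pairs with a changed balance for iec1, 1 member was called and its partner was not. The largest such change belonged to SPCC777.02, annotated as a transcription factor, and SPCC777.03c, annotated as a cysteine desulfurase family protein, whose overlap of 123 bases holds both ends printed above. SPCC777.02 stood at 71.0 and 63.6 CPM in wild type, 56.6 and 56.0 for nht1, 60.1 and 65.5 for iec1 and 52.0 and 69.4 for iec5. SPCC777.03c, with 45.1% of its span private, stood at 17.2 and 14.7 CPM in wild type, 58.5 and 50.2 for nht1, 77.0 and 75.8 for iec1 and 39.5 and 24.8 for iec5. Its overlap with SPCC777.02 made up 3.54% of its span, so most of its shared bases lay under other coding spans. The libraries labelled nht1, iec1 and iec5 all lay above wild type for SPCC777.03c, while for SPCC777.02 the iec1 and iec5 libraries overlapped wild type. SPCC777.03c rose for nht1 (1.77 ± 0.25, edgeR adjusted p = 0.000305) and iec1 (2.26 ± 0.24, 9.13e-06), and the balance changed by -1.98 (limma adjusted p = 0.000131) and -2.32 (4.81e-06). These 4 calls held under every alternative. For iec5 the rise of SPCC777.03c missed the threshold (1.003 ± 0.253, edgeR adjusted p = 0.157), but passed without iec5 replicate 2 (0.0395).

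In SPBC887.17 and hfi1 the called member fell. SPBC887.17, annotated as a transmembrane transporter, stood at 782 and 590 CPM in wild type, 265 and 227 for nht1, 129 and 148 for iec1 and 500.4 and 469.5 for iec5. Its partner hfi1, a subunit of the SAGA coactivator complex, with which it shared 82 bases, stayed between 66.4 and 84.7 CPM in all 8 libraries. SPBC887.17 fell by 1.48 ± 0.15 on the log2 scale for nht1 (edgeR adjusted p = 1.74e-05) and by 2.31 ± 0.16 for iec1 (4.61e-08), whereas hfi1 had log2 fold changes of -0.16 and -0.19 (0.688 and 0.546). The fall held under every alternative, as did the balance for iec1 (-2.11, limma adjusted p = 5.93e-07), and that for nht1 (-1.31, 0.00136) ended without wild-type replicate 1 (0.0819).

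The meiotic gene rec10, which encodes a protein of the chromosome axis needed for meiotic recombination, shared 36 bases with zip1, which encodes a bZIP transcription factor. The level of rec10 was 21.1 and 14.7 CPM in wild type, 63.2 and 69.5 for nht1, 60.1 and 78.1 for iec1 and 45.8 and 36.5 for iec5, with the libraries of all 3 labels above wild type. It rose in all 3 comparisons (1.89 ± 0.23, edgeR adjusted p = 0.000115; 1.96 ± 0.23, 2.86e-05; 1.19 ± 0.24, 0.0333). For nht1 and iec1 this held under every alternative. For iec5 it ended without either wild-type library, either nht1 library or iec5 replicate 1 (0.0698 to 0.551). The level of zip1 ran from 124 to 177 CPM in wild type and from 174 to 238 in the libraries labelled nht1, iec1 and iec5, and it missed the threshold (0.54 ± 0.18, 0.1004; 0.47 ± 0.18, 0.110; 0.33 ± 0.18, 0.993), though for iec1 it passed without wild-type replicate 2 (0.0460). The balance changed by -1.31 for nht1 (limma adjusted p = 0.0118) and -1.44 for iec1 (0.00206), but not without wild-type replicate 2 (0.348 and 0.132), nor for nht1 without either nht1 library (0.121 and 0.131).

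The genes sog2 and his6 were also called without their partners. The first, sog2, which encodes a leucine-rich repeat protein, shared 53 bases with SPBC887.08. It stood at 22.1 and 28.7 CPM in wild type, 58.8 and 58.6 for nht1, 75.7 and 96.3 for iec1 and 24.7 and 26.0 for iec5, so that the nht1 and iec1 libraries stood apart. It rose for nht1 (1.21 ± 0.21, edgeR adjusted p = 0.00257; 0.0555 without wild-type replicate 1) and iec1 (1.77 ± 0.21, 2.37e-05). SPBC887.08 ranged from 17.3 to 31.8 CPM over all libraries. The balance changed by -2.07 for iec1 (limma adjusted p = 8.81e-05, kept under every alternative) and by -1.42 for nht1 (0.0118), the latter lost without any 1 of the 4 libraries compared (0.0754 to 0.148). The gene his6, of histidine biosynthesis, shared 1755 bases with map3, the receptor of the mating pheromone M-factor, and only 19.0% of its span was private. It stood at 52.9 and 65.1 CPM in wild type, 15.4 and 19.3 for nht1, 20.6 and 25.6 for iec1 and 32.9 and 28.6 for iec5, those of all 3 labels below wild type. It fell for nht1 (-1.77 ± 0.24, edgeR adjusted p = 0.000285) and iec1 (-1.34 ± 0.24, 0.00112) under every alternative, and missed the threshold for iec5 (-0.94 ± 0.23, 0.115). Counts of map3 were low, from 4.89 to 9.17 CPM. The balance changed by -1.88 for nht1 (limma adjusted p = 0.0254) and by -1.64 for iec1 (0.0268), the former lost without any 1 of the 4 libraries compared (0.0604 to 0.324), the latter without replicate 2 of wild type or replicate 1 of iec1 (0.294 and 0.239).

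Another 3 pairs, named for iec1, each held 1 weakly expressed member that rose. The gene pyp2 encodes a tyrosine phosphatase that acts on the stress MAP kinase Sty1, and shared 48 bases with emc10, of the endoplasmic reticulum membrane complex. It stood at 5.44 and 5.20 CPM in wild type, 9.75 and 9.46 for nht1, 28.0 and 15.3 for iec1 and 10.5 and 7.58 for iec5. The libraries of all 3 labels lay above wild type, and pyp2 rose for iec1 (1.98 ± 0.39, edgeR adjusted p = 0.00274), while emc10 did not pass (-0.44 ± 0.30, 0.415). SPCC895.08c, which shared 43 bases with the microtubule polymerase gene alp14, stood at 10.6 and 6.12 CPM in wild type, 14.2 and 16.4 for nht1, 42.6 and 30.5 for iec1 and 13.2 and 11.7 for iec5. Its iec1 libraries were the highest, and it rose there (2.11 ± 0.32, 0.000340), while alp14 stayed at 95.7 to 113 CPM in wild type and 97.7 and 106 for iec1. SPCC1739.08c, annotated as a dehydrogenase, shared 923 bases with cti1, which encodes an exosome cofactor. It stood at 3.93 and 2.45 CPM in wild type, 11.6 and 6.55 for nht1, 15.1 and 16.7 for iec1 and 2.96 and 4.96 for iec5, which in wild type is 13 and 8 counts. The iec1 libraries were the highest. It rose for iec1 (2.31 ± 0.45, 0.00247), a call lost without wild-type replicate 2 (0.0519), and cti1 had a log2 fold change of -0.10 (0.827). The balances changed by 2.24 (limma adjusted p = 0.000455) for pyp2 and emc10, -2.11 (0.000243) for alp14 and SPCC895.08c and -2.18 (0.00480) for cti1 and SPCC1739.08c, the last lost without wild-type replicate 2 (0.165).

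The deleted gene iec5 is itself a member, paired with mns1, which encodes a mannosidase of glycan processing, over 1012 shared bases (chrI:3322678-3323689). The private bases of iec5, 44.9% of its span, held 12.4 and 12.8 CPM in wild type, 12.3 and 16.0 for nht1, 8.71 and 15.0 for iec1 and 3.29 and 1.46 for iec5, the last from 10 and 5 counts. The iec5 libraries lay below all others. The level of mns1 was 80.6 and 86.2 CPM in wild type, 92.5 and 97.8 for nht1, 81.2 and 79.3 for iec1 and 112 and 106 for iec5, the highest in the libraries labelled iec5. The gene iec5 fell there (-2.42 ± 0.47, edgeR adjusted p = 0.0278), mns1 did not pass (0.38 ± 0.15, 0.795), and the balance changed by -2.58 (limma adjusted p = 0.00217). The iec5 call ended without any 1 of the wild-type, nht1 or iec5 libraries (0.0527 to 0.417), and the balance call without either wild-type library or iec5 replicate 2 (0.0702 to 0.156). The labels do not say which bases were deleted. Besides iec5, rec10 and SPBPB10D8.02c, the members called for iec5 were SPAC2E1P3.01 (0.83 ± 0.16, edgeR adjusted p = 0.0210), which shared 29 bases with amt3, and SPBC18E5.01 (0.64 ± 0.13, 0.0375), which shared 193 bases with lcb1; both were named after their values were seen. Their partners had log2 fold changes of 0.16 and 0.06.

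A joint test for any difference among the 4 strains, with edgeR on the same fit, called 76 members (5.48%, against 7.33% of all tested genes) and both members of 4 pairs (0.615%, against 0.937% of adjacent pairs). These 4 were rbm17 and alx1, ste24 and SPAC3H1.06c, caf16 and fus1, and SPBC1271.10c and tgp1.

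In the 3 longest overlaps with both members tested, no member passed the test. In rad3, the ATR checkpoint kinase, and swi1, a replication fork protection factor, 6260 bases were shared, so that 33.9% and 16.8% of the spans were private. The level of rad3 was 103 and 116 CPM in wild type, 112 and 88.8 for nht1, 85.7 and 110.4 for iec1 and 113 and 122 for iec5. The level of swi1 was 42.6 and 35.8 CPM in wild type, 33.7 and 24.4 for nht1, 35.8 and 23.8 for iec1 and 30.6 and 33.2 for iec5. The rad3 libraries of the groups overlapped, the libraries labelled nht1, iec1 and iec5 lay below both wild-type libraries for swi1 (for iec1 replicate 1 by less than the printed digits), and neither gene passed in any comparison, with log2 fold changes of -0.15 to 0.10 and -0.43 to -0.29. In msw1, a mitochondrial tryptophan tRNA ligase, and peg1, a CLASP microtubule-associated protein (4831 bases), and in esf2, a factor of ribosomal RNA processing, and lvs1 (3899 bases), no member and no balance was called either. The counts of peg1 were near the floor, at 0.881 to 6.34 CPM, and its log2 fold change for iec1 was -1.34 ± 0.68 (edgeR adjusted p = 0.243). The 2 other overlaps above 4831 bases, prp17 with fab1 and ams1 with dhd1, had a member with too few counts to test.

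Of the 26 tested members on 4 lists of machinery known for convergent genes, 2 were called for iec1 (7.69%, against 10.3% of all tested genes). For nht1 it was 0 (against 4.13%) and for iec5 0 (against 0.408%), shares near the background. The lists were compiled with earlier results of these data known. Of 28 genes listed under 3′ end processing and termination 7 were members, 6 of them tested (cft2, pcf11, dhp1, swd2, ppn1 and pla1). Whether swd2 acts in 3′ end processing was not checked. Of 11 cohesin genes 3 were members (rad21, psc3 and eso1). No tested member of these 2 lists was called in any comparison, by edgeR or by DESeq2, and 1 (psc3, for iec1) had an unadjusted edgeR p under 0.05. The medians of these members for iec1 were 0.03 and -0.15, against 0.02 for all tested genes, and 1 and 2 genes of the whole lists rose. Of 13 RNA interference genes listed, 12 were found, 6 were members and 5 of these were tested. Their median for iec1 was 0.47, against 0.34 for the whole list, of which 2 rose, 1 of them a member. This was dsh1, which works in small interfering RNA production and shared 8 bases with the B-type cyclin gene cdc13. It stood at 103 and 84.1 CPM in wild type, 141 and 124 for nht1, 161 and 127.5 for iec1 and 123 and 98.6 for iec5, with the nht1 and iec1 libraries above wild type (iec1 0.62 ± 0.17, edgeR adjusted p = 0.0286; 0.242 without replicate 2 of wild type and 0.246 without replicate 1 of iec1). Members dcr1, the Dicer ribonuclease, arb2, ers1 and hrr1 had log2 fold changes of 0.34, 0.53, 0.47 and 0.01 for iec1 and did not pass. Of 32 genes that limit antisense RNA (exosome, Clr6 complex II, CHD remodellers and histone chaperones) 12 were members, with a median of -0.15 for iec1 and 1 fall. In the whole list 2 rose and 1 fell for iec1. The one that fell was alp13, a chromodomain subunit of Clr6 complex II, which shared 549 bases with SPAC23H4.13c. It stood at 68.9 and 61.4 CPM in wild type, 47.5 and 53.8 for nht1, 32.1 and 48.5 for iec1 and 76.1 and 90.4 for iec5, so that the nht1 and iec1 libraries lay below wild type and the iec5 libraries above it. Its fall for iec1 (-0.67 ± 0.21, edgeR adjusted p = 0.0465) ended without either wild-type library, iec1 replicate 1 or either nht1 library (0.0663 to 0.351) and in a fit of 2 groups (0.0761). In the libraries labelled nht1 and iec5 no member of the 4 lists was called by either tool, while for nht1 5 and for iec5 1 had an unadjusted edgeR p under 0.05.

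Annotated noncoding RNAs lay on few of the overlaps. Of the 1528 noncoding features 33 shared bases with the overlap of 32 pairs, and 31 could be tested. With edgeR over 1096 noncoding features, 1 of the 31 fell for nht1 and 1 for iec1 (backgrounds of 6.57% and 14.7%), and 0 for iec5 (1.46%), where 0 of the 31 had an unadjusted p under 0.05. Both calls were SPNCRNA.1620, which lies on the minus strand inside the span of kae1 and reaches 67 bases into its overlap with dna2. Its log2 fold change was -0.66 ± 0.18 (edgeR adjusted p = 0.0277) for nht1 and -0.63 ± 0.18 (0.0193) for iec1, beside -0.72 and -0.76 for kae1. Noncoding features wholly inside coding spans had a median of 849 counts per kilobase, against 33.8 for those outside, so reads of SPNCRNA.1620 and of kae1 cannot be told apart.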

How the data were processed

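The authors deposited raw counts per coding and noncoding feature. The submitters' processing notes name HISAT2 2.1.0, build ASM294v2, featureCounts 1.6.1 and DESeq2 1.28.0. How strand was set in the counting is not stated there. Here, coding counts of all 8 libraries were tested with the quasi-likelihood test of edgeR 4.0.16 (R 4.3.3), with TMM factors and edgeR's default low-count filter, which left 4652 genes (biological coefficient of variation 11.9%). Noncoding features used the coding library sizes. Standard errors were taken from the log2 fold change and its F statistic. Pair balances were tested with limma 3.58.1 (log2 CPM, prior count 2). Adjusted p-values are Benjamini-Hochberg over the whole table, called under 0.05. The tests were tried on simulated counts with known changes and 1 spread for all genes. The gene test recovered 32.8% to 55.2% of 1.5-fold changes and 88.1% to 89.6% of 2-fold changes. The balance test recovered 11.1% to 24.8% and 53.8% to 68.4%, so smaller changes were often missed. Symbols and sequences came from RefSeq ASM294v3, and levels and overlaps from the files. The members and lists were chosen with earlier results of these data known. For each strain the naming rule took up to 5 pairs called the same way, 5 in opposite ways and 5 with 1 called member and a called balance, each by size; then the pairs of the deleted genes, the 3 longest overlaps and called list members. Alternatives were DESeq2 1.42.0, RLE factors, no filter, a replicate block, 2-group fits, a log2 fold change of at least 1, overlaps of at least 100 bases, a prior count of 0.5 and 8 fits without 1 library. Figures used Python 3.11.15 and matplotlib 3.10.9. A count of 3 was taken as the floor, for counting error only.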

Additional observations from a re-analysis of the deposited data

How the results depend on the processing

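No value of a named gene or balance changed sign among called results: of 63 named calls, 27 were kept under every alternative and 36 were lost under at least 1, all of them without some library. Counts moved as follows. With a replicate block, for nht1 52 members rose and 30 fell, both members were called in 9 pairs (6 the same way, 3 in opposite ways) and 30 balances changed; for iec1 65 fell and both were called in 19 pairs (10 and 9); for iec5 5 rose and 3 balances changed. The block also brought under the threshold, for nht1, fus1 (edgeR adjusted p = 0.0100), kae1 (0.00828), dsh1 (0.0256), SPBPB10D8.01 (0.0356) and zip1 (0.0419), for iec5 SPCC777.03c (0.0430) and his6 (0.0461), and the balances of caf16 and fus1 (limma adjusted p = 0.0261) and SPCC777.02 and SPCC777.03c (0.0392) for iec5 and of SPAC23H4.13c and alp13 (0.0471) for iec1; fus1 was thereby opposed to caf16 for nht1. The labels do not say whether the replicate numbers pair the libraries. The correlations of same-numbered deviations ran from -0.07 to 0.27, which does not decide it. In fits of 2 groups, nht1 gave 5 pairs with both called (4 the same way) and 28 balances. With a log2 fold change of at least 1, for nht1 15 rose, 4 fell and 0 pairs had both called, the same way or in opposite ways; for iec1 37 rose, 6 fell and 1 pair had both called, the same way, with 0 in opposite ways; for iec5 1 rose. Among pairs sharing at least 100 bases, for nht1 14 rose, 10 fell, 0 pairs were opposed and 11 balances changed; for iec1 48 rose, 22 fell, 2 pairs were opposed and 30 balances changed; for iec5 1 rose. Leaving out 1 library at a time gave, for nht1, 7 to 34 risen, 4 to 25 fallen, 0 to 6 pairs with both called (0 to 4 the same way, 0 to 2 opposed) and 4 to 20 balances; for iec1, 37 to 88 risen, 14 to 35 fallen, 0 to 8 pairs (0 to 4 and 0 to 4) and 20 to 68 balances; for iec5, 0 to 3 risen, 0 to 2 fallen and 0 to 1 balance. The cause was not tested. Over all alternatives the correlation of partners' log2 fold changes ran from 0.00 to 0.11 for nht1, -0.02 to 0.09 for iec1 and -0.03 to 0.03 for iec5. Members with few private bases have few counts, and 2 libraries per strain limit the precision of every value.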
